A study of Mus musculus with 3 samples.

Results

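Type 2 pneumocytes (AT2) of mouse lung were examined as whole cells and as isolated nuclei. They were chosen by the measured values of 6 marker genes: a barcode belonged to the class when the summed UMIs of Abca3, Lamp3, Slc34a2, Cxcl15, Acoxl and Hc took at least 0.3% of its UMIs and when Rtkn2, Ager, Col4a3 and Col4a4, genes of type 1 pneumocytes (AT1), together took under 0.5%. A UMI stands for 1 captured transcript and a barcode for 1 droplet holding a cell or a nucleus. The rule selected 3771 of 28589 barcodes, of which 409 of 11934 were cells, 1322 of 6849 were nuclei of replicate 1 and 2040 of 9806 were nuclei of replicate 2. All 3 droplet libraries came from wild type C57Bl/6J mice. The cell library was made from fresh lung dissociated with collagenase, DNAse and a mechanical dissociator and cleaned on a density gradient, and the nucleus libraries from snap-frozen lung of adult mice lysed in a nucleus isolation buffer and filtered. The labels give neither the age of the mice used for cells, nor the number of animals, nor any pooling. Fresh or frozen tissue, digestion and the compartment sampled therefore differed together between cells and nuclei and cannot be told apart.

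AT2 are the cuboidal epithelial cells of the alveolus. They make pulmonary surfactant, a film of phospholipid and of the proteins Sftpa1, Sftpb, Sftpc and Sftpd that lowers surface tension, store it in lamellar bodies loaded by the lipid transporter Abca3, and secrete it into the airspace. They also take up fluid from the alveolus, take part in innate defence, and act as progenitors that divide and give rise to the thin AT1 of the gas exchange surface. A whole cell holds cytoplasmic mRNA together with nuclear transcripts, whereas a nucleus holds mostly newly made, often unspliced, RNA.

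The classes were first checked against their markers. The 6 genes chose the members, so their levels are a description. Levels are given in CPM, a gene's UMIs per 1000000 UMIs summed over the AT2 barcodes of a library, with 1 cell library and 2 nucleus libraries. Levels of different genes are not compared, since the length of a gene also moves them. Slc34a2, the phosphate transporter of the AT2 surface, stood at 2131 CPM in cells, against 2110 and 2061 CPM in nuclei of replicates 1 and 2. Abca3 stood at 500.4 CPM in cells, against 1120 and 1387 CPM in nuclei. Lamp3, a glycoprotein of lamellar bodies, had 757 CPM in cells and 1491 and 1309 CPM in nuclei. Hc, the complement component C5, had 931 CPM in cells and 1351 and 1808 CPM in nuclei. Acoxl, an acyl-CoA oxidase-like gene, had 847 CPM in cells and 1409 and 2491 CPM in nuclei. Cxcl15, the secreted chemokine lungkine, ran the other way, with 3120 CPM in cells and 292 and 853 CPM in nuclei. Abca3, Lamp3, Acoxl and Hc were thus lower in the cell library than in either nucleus library, Slc34a2 was level, and Cxcl15 was highest in cells. The median summed share of the 6 genes was 0.751% of UMIs in cells, 0.735% in nuclei replicate 1 and 0.935% in nuclei replicate 2, and at least 3 of the 6 genes were detected in 99.5, 99.7 and 96.9% of members.

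Sftpc, the surfactant protein used most often to name this cell type, was not part of the rule. Its median share of an AT2 cell's UMIs was 5.6%, against 0.0559% in AT1 cells, 0.0668% in endothelial-marked cells and 0.0637% in immune-marked cells. Endothelial-marked barcodes held at least 0.5% of their UMIs in Cdh5, Ptprb, Pecam1, Cldn5, Calcrl and Tek, immune-marked ones at least 0.3% in Ptprc, Laptm5, Coro1a, Lcp1, Cytip and Arhgap45, and neither belonged to another class. In nuclei the same medians were 0.419 and 0.597% in AT2 of replicates 1 and 2, against 0.157 and 0.176% in AT1 and 0.24 and 0.343% in endothelial-marked nuclei. Immune-marked nuclei came nearest to AT2, with 0.303 and 0.401%. Sftpc therefore set AT2 apart by a wide margin in cells and by a narrow one in nuclei, where every class held it.

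**Figure D1:**
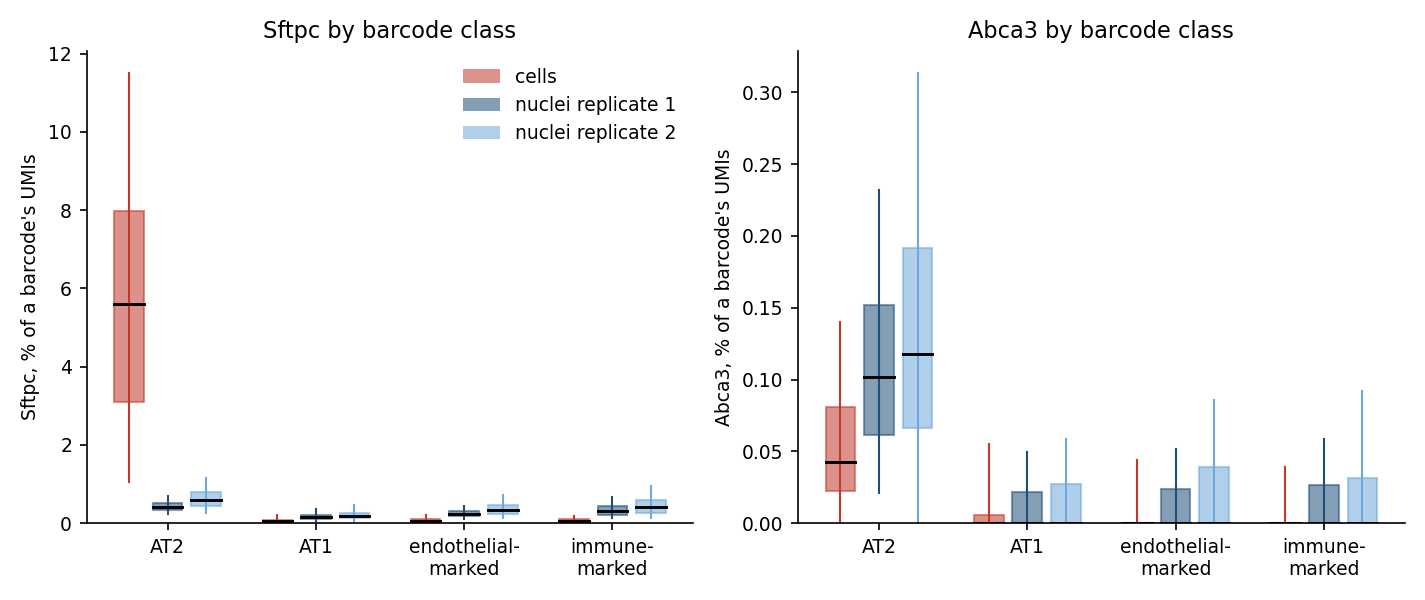
Share of a barcode's UMIs taken by Sftpc (left) and by Abca3, a gene of the rule (right), in 4 barcode classes, with cells left of the 2 nucleus libraries. Black lines are medians, boxes the middle 50% and thin lines the 5th to 95th percentiles over barcodes; AT2 cells have a median Sftpc share of 5.6%, whereas AT2 nuclei have 0.419 and 0.597%.

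Of the barcodes in the cell library 3.43% were AT2 (exact binomial 95% interval 3.11 to 3.77%), against 19.3% (18.4 to 20.3%) and 20.8% (20 to 21.6%) of the nucleus libraries. With 1 cell library there is no test of this difference, the intervals cover counting error only, and the values of the rule itself set the shares. Barcodes just inside the limit, at 0.3 to 0.35% of UMIs, numbered 18 cells and 32 and 160 nuclei, and those just outside, at 0.25 to 0.3%, numbered 18 cells and 34 and 222 nuclei. Median Sftpc shares were 1.65% just inside and 1.11% just outside in cells, 0.367 and 0.420% in nuclei replicate 1, and 0.561 and 0.434% in nuclei replicate 2. In replicate 2 the barcodes just inside were shallow, with a median of 1272.5 UMIs and 4 marker UMIs, and with the limit at 0.2% its AT2 share became 27.4%. A further 1 cell and 3 and 8 nuclei exceeded both limits and were left out.

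The libraries differed in ways that touch every comparison below. AT2 barcodes held a median of 3216 UMIs in cells and 4490.5 and 2242.5 in nuclei, and their summed counts were 1331506, 5769870 and 4940451. Mitochondrial transcripts took a median of 4.40% of UMIs in AT2 cells and 0.272% in AT2 nuclei of both replicates. The club cell gene Scgb1a1 stood at 1542 CPM in AT2 cells and at 14192 and 16960 CPM in AT2 nuclei, and at 1260, 15926 and 18490 CPM in the endothelial-marked barcodes of the same libraries. Summed markers of club cells (6 genes) took a mean of 0.187% of UMIs in AT2 cells, against 1.59 and 2.20% in AT2 nuclei. Summed endothelial markers (6 genes) took 0.265% in AT2 cells, against 0.05 and 0.0897% in AT2 nuclei, and all 6 of them were detected in AT2 of all 3 libraries. Their sum reached 0.5% of UMIs, the limit of the endothelial-marked class, in 16.4% of AT2 cells, against 0.151 and 2.40% of AT2 nuclei. Markers of basal cells (4 genes, at most 0.000471%) and of ciliated cells (6 genes, at most 0.0275%) were near 0 in AT2. Those of fibroblasts, smooth muscle and pericytes, mesothelium, alveolar macrophages, other myeloid cells and lymphocytes took at most 0.0461%, and haemoglobin genes 0.166% in AT2 cells, against 0.032 and 0.0142% in AT2 nuclei. The 6 genes that define immune-marked barcodes below the other limits took more, a mean of 0.106% in AT2 cells, against 0.06 and 0.0828% in AT2 nuclei. Xist, expressed from the inactive X chromosome of females, stood at 246 CPM in AT2 cells and 1203 and 23.3 CPM in AT2 nuclei, and the Y-linked Uty at 3.01 CPM in cells and 1.56 and 319.7 CPM in nuclei. Nuclei of replicate 1 thus had mainly the sex genes of females and those of replicate 2 the sex genes of males, in every class. The nucleus libraries therefore did not come from the same animal, although the labels name no animals. A p-value here speaks of the spread between these libraries, which takes in animal and sex and may be technical in part. A doublet caller marked 90 barcodes of nuclei replicate 1, 8 of them AT2, and did not work in the other libraries, where it marked 11 and 8 barcodes. Libraries shared 21, 24 and 21 barcode sequences by pairs, none of them AT2 in both.

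The number of genes seen in an AT2 barcode depended on its depth. After each barcode was thinned to 1000 UMIs, a median of 726 genes was detected in AT2 cells, against 729 and 756 genes in AT2 nuclei, with 94 shallow nuclei of replicate 2 left out. Without thinning the medians were 1828 genes in cells, against 2166.5 and 1432 in nuclei. With 1 cell library the difference was not tested. The highest number of genes in an AT2 barcode was 2497 in cells, against 2499 and 2985 in nuclei. In the other classes it was 2492 to 2499 in cells, 2485 to 2498 in nuclei replicate 1 and 2813 to 2977 in replicate 2. The unthinned medians may thus be cut at limits that differ between libraries, and the filters on barcodes are not given.

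The surfactant proteins did not all differ between cells and nuclei. Sftpc, a hydrophobic peptide that spreads the film, had 58045 CPM in AT2 cells, against 4245 and 5953 CPM in AT2 nuclei, a log2 fold of 3.55 ± 0.89 (SE; edgeR adjusted p = 0.020). Sftpa1, a collectin that binds microbes and shapes the film, had 5672 CPM in cells, against 644 and 676 CPM in nuclei (log2 fold 3.12 ± 0.61, edgeR adjusted p = 0.0065). Both were higher in cells than in either nucleus library, and the call of Sftpc was lost at a marker limit of 0.2% (edgeR adjusted p = 0.054) and without a filter on low counts (edgeR adjusted p = 0.069), at log2 folds of 3.52 and 3.43. It was also lost on subtraction of the background, taken as the lowest level among AT1, endothelial-marked and immune-marked barcodes of the same library (edgeR adjusted p = 0.24, an alternative chosen after seeing the data). No gene passed under that subtraction. Sftpb, the other hydrophobic surfactant peptide, had 3089 CPM in cells, against 3072 and 2254 CPM in nuclei (log2 fold 0.21 ± 0.66, edgeR adjusted p = 0.84). The cell value of Sftpb lay just above that of nuclei replicate 1. The collectin Sftpd had 990.2 CPM in cells, against 668 and 398 CPM in nuclei, and did not pass the test (edgeR adjusted p = 0.29). The proteases that mature Sftpb and Sftpc did not pass either: Napsa stood at 661 CPM in cells, against 333 and 238 CPM in nuclei, and Ctsh at 213 CPM in cells, against 855 and 264 CPM in nuclei. Of the 8 genes of this list that could be tested, 2 were higher and none was lower in cells, with a median log2 fold of 0.98, against -0.07 over all genes. Over all 15166 genes tested, 13.1% were called higher and 6.44% lower in cells.

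These levels stand against those of other classes. In AT1, endothelial-marked and immune-marked cells Sftpb had 43, 48.2 and 35.7 CPM, and in the same classes of nuclei it had 165 to 492 CPM. Sftpa1 had 80.1 to 96.9 CPM in the other cell classes and 211 to 489 CPM in the other nucleus classes, so that the gap between AT2 and the rest was much narrower in nuclei. Free RNA was not removed from the counts, and its part in these levels was not tested.

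The 250 bases before the start of Sftpa1 and of Sftpb, a gene with a large difference and one with almost none, are printed to show the motif that Nkx2-1 binds in surfactant promoters. Nkx2-1 is the homeodomain factor of lung epithelium, and its consensus there, GCNCTNNAG, was searched on both strands and is set in capitals. The sequences are from RefSeq, build GRCm38.p6, 5′ to 3′ on the strand of the gene.
Sftpa1, chr14:41131538-41131787, plus strand: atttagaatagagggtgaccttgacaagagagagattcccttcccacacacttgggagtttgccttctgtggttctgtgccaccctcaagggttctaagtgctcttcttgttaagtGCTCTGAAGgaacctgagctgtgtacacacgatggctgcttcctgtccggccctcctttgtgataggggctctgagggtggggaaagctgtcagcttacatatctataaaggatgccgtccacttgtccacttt
Sftpb, chr6:72304360-72304609, plus strand: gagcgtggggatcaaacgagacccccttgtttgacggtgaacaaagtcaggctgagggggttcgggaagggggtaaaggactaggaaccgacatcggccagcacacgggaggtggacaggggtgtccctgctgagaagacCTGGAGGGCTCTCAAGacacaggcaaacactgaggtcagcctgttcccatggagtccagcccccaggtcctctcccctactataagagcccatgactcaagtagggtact
The motif was found once in Sftpa1, from 134 to 126 bases before the start, and at 2 overlapping places in Sftpb, from 110 to 102 and from 103 to 95 bases before it. It was present in 14.2% of all 32851 promoters of that length, in 2 of the 4 promoters of the surfactant protein list that the table holds, and in 11 of 45 promoters of the surfactant lipid list. A match is a description of the letters and not a bound site. Both genes held it although Sftpa1 differed between preparations and Sftpb did not pass the test.

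**Figure D2:**
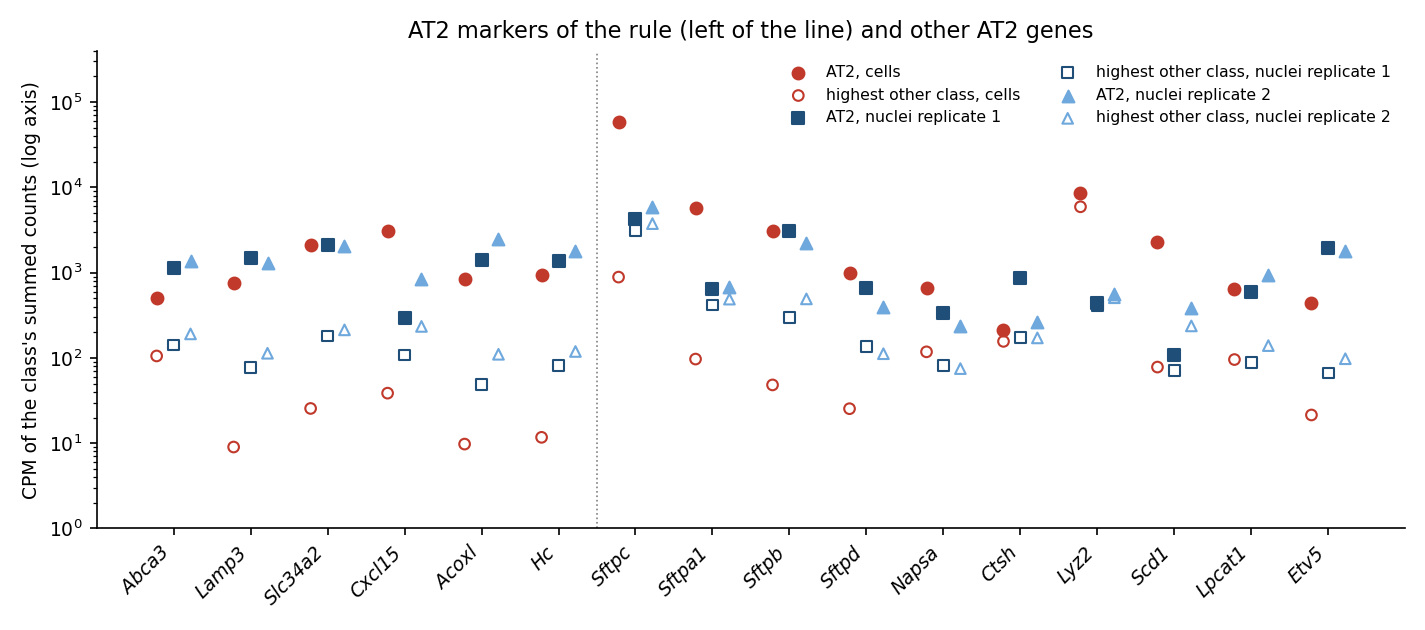
Levels in AT2 (filled symbols) and the highest level among AT1, endothelial-marked and immune-marked barcodes of the same library (open symbols), in CPM on a log axis, for the 6 genes of the rule and for 10 other AT2 genes. Each symbol is 1 library; Sftpc, Sftpa1, Lyz2 and Scd1 stand higher in cells than in nuclei, whereas Sftpb and Lpcat1 stand at similar levels.

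Across all genes the AT2 of the 2 preparations differed widely. In cells 1993 genes were called higher (13.1%) and 976 lower (6.44%) among 15166, at an edgeR adjusted p under 0.05, with a median log2 fold of -0.07. The spread in this fit comes from the pair of nucleus libraries, with 1 residual degree of freedom, and the lone cell library is taken to spread as they do. DESeq2 called 1010 higher and 550 lower, and edgeR called 1542 higher and 544 lower after removal of the 139 cells and of the nuclei with at least 0.5% of UMIs in markers of cell types other than AT1, club, ciliated and red cells, and 2703 higher and 2007 lower with the marker limit at 0.5%. The removal was uneven and left 270 of 409 AT2 cells, against 1318 of 1322 and 1939 of 2040 AT2 nuclei. When the level shared by the other classes of each library was taken off, no gene passed and 726 were higher and 1406 lower at an unadjusted p under 0.05.

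The differences varied with the length of the gene. The 15064 tested genes with a position in GENCODE release M21 were set in 5 equal groups by genomic span. In the shortest group, with a median span of 4.99 kb, the median log2 fold was 1.01, with 30.1% of genes called higher and 2.12% lower in cells. In the longest, with a median span of 143 kb, the median log2 fold was -0.63, with 5.08% called higher and 9.53% lower. The 3 groups between them had medians of 0.32, -0.19 and -0.46 in order of span. Among ribosomal protein genes 77 of 81 were higher and none was lower (median log2 fold 2.87), and all 11 mitochondrial transcripts tested were higher (median 3.89). Oxidative phosphorylation genes of the nuclear genome numbered 48, with 39 higher and 1, Uqcrc2, lower, with a median of 1.91. mt-Cytb, a subunit of complex III, had 7319 CPM in AT2 cells, against 215 and 220.1 CPM in AT2 nuclei. The median mitochondrial share of AT2 cells, 4.40%, was above the 2.31% of AT1 cells and the 1.99% of endothelial-marked cells.

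The median log2 fold of nuclear long non-coding RNAs was below 0, at -1.15, with single genes from -2.51 to 0.87. Of 11 tested, none was higher in cells, 2 were lower and 9 were not called, against 6.44% lower over all genes. At a marker limit of 0.5% 6 were lower, and under 5 other alternatives in edgeR 1 was, so no direction is stated for the class. Snhg11 had 72.9 CPM in AT2 cells, against 439.6 and 397 CPM in AT2 nuclei (log2 fold -2.51 ± 0.55, edgeR adjusted p = 0.012). It stood at 1.26 to 1.95 CPM in the other cell classes and at 11.6 to 30.2 CPM in the other nucleus classes, so in both preparations its level was highest in AT2 among these 4 classes. Malat1, a speckle-associated transcript, had 15507 CPM in cells, against 35868 and 33319 CPM in nuclei, and did not pass (edgeR adjusted p = 0.42).

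Immediate early and heat shock genes made up 5 of the 12 largest differences upward in cells. The 12 named genes with the largest log2 folds were Fosb, Phyhip, Egr1, Mep1a, Srsf12, Atf3, Cxcl2, Fos, Col19a1, Piwil2, Rtn2 and Hspa1a, of 1059 that had at least 50 CPM in cells or nuclei, a 2-fold or larger difference, a passed test, and a cell value above both nuclei. The 36 symbols of clones and the 87 ribosomal protein or mitochondrial genes among the 1059 were set aside, which left 936 to name from. Fosb, a subunit of the AP-1 factor, had 374 CPM in AT2 cells, against 0.347 and 0.405 CPM in AT2 nuclei (log2 fold 9.87 ± 0.58, edgeR adjusted p = 3.6e-05), which rests on 498 counts in cells and 2 in each nucleus library. Fos, of the same gene family, had 575 CPM in cells, against 4.33 and 3.64 CPM in nuclei (log2 fold 7.16 ± 0.52). Egr1, a zinc finger factor induced within minutes by stress and growth factors, had 1464 CPM in cells, against 1.91 and 4.86 CPM in nuclei (log2 fold 8.82 ± 0.65). Atf3, a stress-induced repressor, had 179 CPM in cells, against 0.693 and 1.62 CPM in nuclei. For each of these 4 genes the cell library lay far outside both nucleus libraries. Cxcl2, a neutrophil chemokine, had 57.9 CPM in AT2 cells and 0.52 and 0.202 CPM in AT2 nuclei, but its level in immune-marked cells was 279 CPM. Hspa1a, an inducible chaperone, had 87.2 CPM in cells, 1.56 CPM in nuclei replicate 1 and no count in replicate 2, and its call was lost with DESeq2 (adjusted p = 0.266). The 4 immediate early genes were also present in other cells, and endothelial-marked cells had 394 CPM of Fosb, 1280 of Egr1, 193 of Atf3 and 461 of Fos.

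Over all genes 13.1% were higher and 6.44% lower in AT2 cells. The immediate early list had 42 tested genes, of which 37 were higher in AT2 cells and none was lower, with a median log2 fold of 3.15. They included Junb, which had 1011 CPM in cells, against 12.7 and 18.6 CPM in nuclei, the phosphatase Dusp1, with 589 CPM in cells, against 22 and 23.5 CPM in nuclei, and the orphan nuclear receptor Nr4a3, with 95.4 CPM in cells, against 1.21 and 1.82 CPM in nuclei. An exception was Errfi1, an inhibitor of the EGF receptor, with 429.8 CPM in cells, against 831 and 287 CPM in nuclei, which did not pass (edgeR adjusted p = 0.68). Of 20 heat shock genes 13 were higher and none was lower (median log2 fold 1.63). Hspa1b, a near-identical copy of Hspa1a whose reads may be split between them, had 85.7 CPM in cells, against 1.21 and 0.607 CPM in nuclei. The constitutive chaperone Hspa8 had 466 CPM in cells, against 105 and 73.7 CPM in nuclei. Of 20 genes of the unfolded protein response 6 were higher and none was lower, among them the factor Atf4, with 240.4 CPM in cells, against 24.3 and 42.9 CPM in nuclei. Of 16 p53 targets and apoptosis genes 6 were higher and none was lower, among them the cell cycle inhibitor Cdkn1a, with 178 CPM in cells, against 9.19 and 19.4 CPM in nuclei. For this list DESeq2 called 1 higher and 1 lower of 12, and edgeR called 3 higher of 15 without barcodes holding markers of other types and 6 higher and 2 lower at a marker limit of 0.5%. At that limit 35 of 40 immediate early genes were higher and 1 lower.

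Promoters of the stress genes are shown because these genes moved together. The motif of the cyclic AMP response factor is palindromic, TGACGTCA, and its 5-base core, TGACG, is in capitals for Fos and Fosb; for Hspa1b the capitals mark GAANNTTC, 2 facing units of the element bound by heat shock factor. Each was searched on both strands in the 250 bases before the start (RefSeq, GRCm38.p6), and a palindrome was counted once.
Fos, chr12:85473640-85473889, plus strand: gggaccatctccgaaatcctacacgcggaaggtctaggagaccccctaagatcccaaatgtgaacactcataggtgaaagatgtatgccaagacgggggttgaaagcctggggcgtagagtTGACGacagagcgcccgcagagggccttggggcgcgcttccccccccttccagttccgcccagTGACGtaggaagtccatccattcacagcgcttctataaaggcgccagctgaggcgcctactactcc
Fosb, chr7:19310046-19310295, minus strand: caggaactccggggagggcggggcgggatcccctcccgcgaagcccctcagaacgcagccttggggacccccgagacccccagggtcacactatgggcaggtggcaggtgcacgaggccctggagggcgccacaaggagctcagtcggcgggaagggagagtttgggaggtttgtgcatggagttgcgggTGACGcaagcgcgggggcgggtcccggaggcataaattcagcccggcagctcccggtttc
Hspa1b, chr17:34959239-34959488, minus strand: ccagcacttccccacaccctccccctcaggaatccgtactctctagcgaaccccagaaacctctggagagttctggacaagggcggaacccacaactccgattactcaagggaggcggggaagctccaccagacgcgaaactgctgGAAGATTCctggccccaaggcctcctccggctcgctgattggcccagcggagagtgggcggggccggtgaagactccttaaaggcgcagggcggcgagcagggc
Fos held the core from 129 to 125 and from 66 to 62 bases before the start, and Fosb from 60 to 56 bases before it. The capitals mark only the motif named for each gene, and the motifs did not separate the 2 groups of promoters. Fosb also held the Nkx2-1 consensus at 2 overlapping places, from 134 to 126 and from 131 to 123 bases before the start. Sftpb also held the core, from 219 to 215 bases before its start. The core was present in 22 of the 38 promoters of immediate early genes that the table holds (57.9%), against 17.8% of all 32851 promoters, and the full palindrome in 5 of 38 (13.2%), against 1.55%. GAANNTTC was found in Hspa1b from 104 to 97 bases before the start, in 6 of 16 heat shock promoters (37.5%) and in 6.69% of all promoters. No test was made of these shares.

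Several of the other named genes lie beside genes with many counts. Phyhip, named for its binding to phytanoyl-CoA hydroxylase, had 109 CPM in AT2 cells, against 0.173 and 0.202 CPM in AT2 nuclei, and 0.644 to 3.91 CPM in the other cell classes. With 1 count in each nucleus library, the ratio of cells over nuclei was 583, with a counting interval of 159 to 4862. Piwil2, a PIWI protein of the germ line, had 131 CPM in AT2 cells, against 1.04 and 1.01 CPM in AT2 nuclei, and 3.91 to 21.7 CPM in the other cell classes. Both lie on chromosome 14 (GENCODE release M21, GRCm38), Phyhip at 70457476 to 70468832 and Piwil2 at 70372477 to 70429383. Sftpc lies 52.1 kb from Phyhip, with Bmp1 between them, and Piwil2 lies 28.1 kb on the other side. Polr3d, which sits between Phyhip and Piwil2, was also higher, with 20.3 CPM in cells, against 3.81 and 4.25 CPM in nuclei. Bmp1 had 568.0 CPM in cells, against 631 and 1097 CPM in nuclei, and did not pass the test (edgeR adjusted p = 0.50). Rtn2, a reticulon of the endoplasmic reticulum on chromosome 7, lies 6.54 kb from the end of Fosb on the other strand, and had 137 CPM in cells, against 1.21 and 1.42 CPM in nuclei. Ppm1n, 22.6 kb from Fosb, had 22.5 CPM in cells and no count in either nucleus library. Mep1a, a metalloprotease subunit 14.8 kb from Adgrf5, had 54.1 CPM in AT2 cells, against 0.173 and 0.202 CPM in AT2 nuclei, and stood higher, at 128 CPM, in endothelial-marked cells; its ratio in AT2 was 289.6 (77.3 to 2437). The splicing factor Srsf12 had 70.6 CPM in AT2 cells, against 0.173 and 0.405 CPM in AT2 nuclei, a ratio of 252 (83.7 to 1244), and 3.91 to 8.59 CPM in the other cell classes. Col19a1, a collagen, had 347 CPM in AT2 cells and 189.5 to 199 CPM in the others, with 2.08 and 3.44 CPM in AT2 nuclei. Whether reads were counted by strand is not given in the sources used here.

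**Figure D3:**
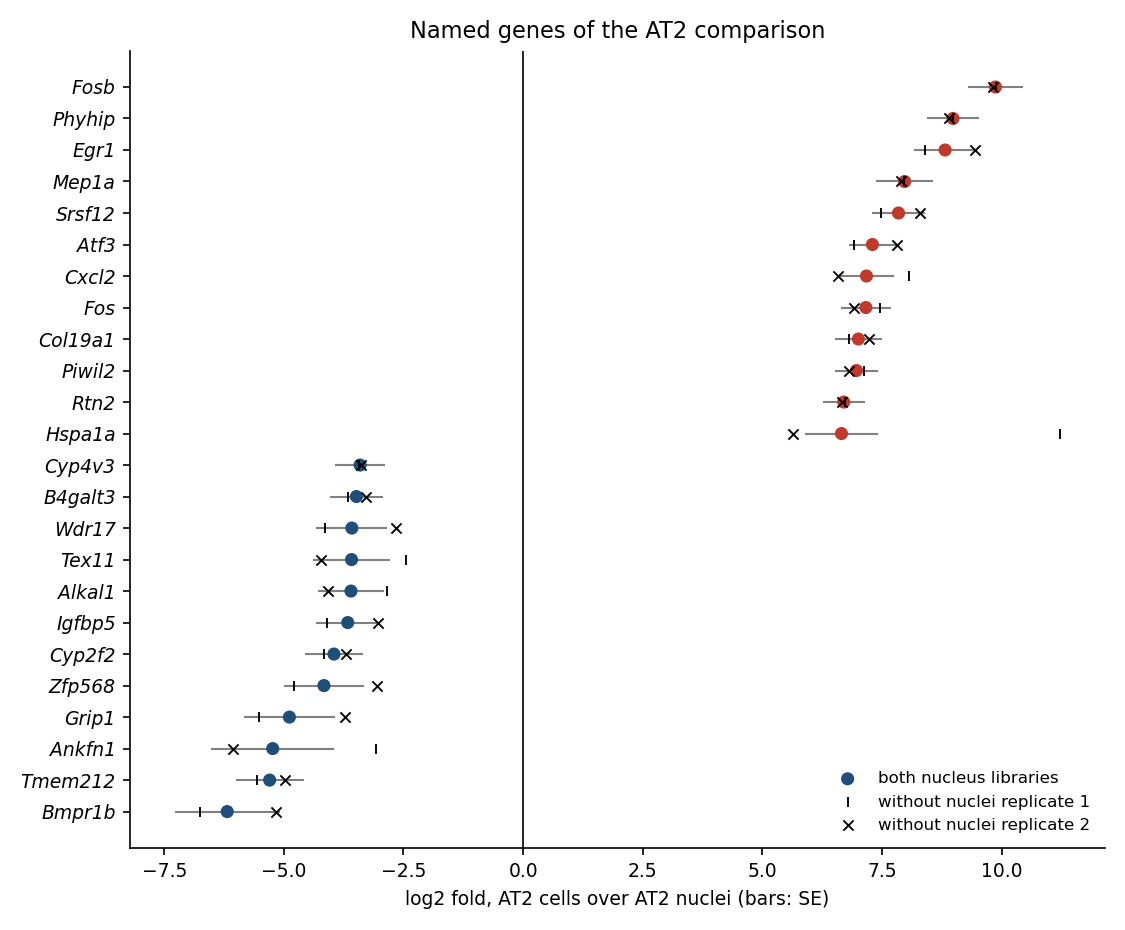
Log2 fold of AT2 cells over AT2 nuclei for the 24 named genes, with the SE of the edgeR fit as bars, and the fold with 1 nucleus library left out as black marks. All 12 named genes higher in cells have log2 folds from 6.65 to 9.87, and the 12 lower ones from -6.18 to -3.41; the folds of Ankfn1 and Hspa1a move most when a library is left out.

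The 12 named genes with the largest differences downward were Bmpr1b, Tmem212, Ankfn1, Grip1, Zfp568, Cyp2f2, Igfbp5, Alkal1, Tex11, Wdr17, B4galt3 and Cyp4v3, of 460 that met the rule, or 415 once 45 symbols of clones were set aside. For 6 of them, Tmem212, Ankfn1, Zfp568, Cyp2f2, Igfbp5 and Wdr17, another class of nuclei stood above AT2 nuclei in both replicates. Bmpr1b, a BMP receptor, had 0.751 CPM in AT2 cells, against 25.8 and 96 CPM in AT2 nuclei, and 23.4 and 68.6 CPM in endothelial-marked nuclei. The club cell enzyme Cyp2f2 had 27 CPM in AT2 cells, against 323 and 546 CPM in AT2 nuclei, and 348 and 517 CPM in endothelial-marked nuclei. Tmem212, a ciliated cell gene, had 1.5 CPM in AT2 cells, against 44.2 and 81.2 CPM in AT2 nuclei, and Grip1, an adaptor of glutamate receptors, 3.01 CPM in cells, against 36.7 and 156 CPM in nuclei. Scgb1a1 was likewise higher in nuclei than in cells of AT2, AT1, endothelial-marked and immune-marked barcodes, and the part of free RNA in these 4 genes was not tested. Alkal1 and Tex11 differed from this. Alkal1, a ligand of the ALK receptor, had 6.01 CPM in AT2 cells, against 94.1 and 49 CPM in AT2 nuclei (log2 fold -3.60 ± 0.70, edgeR adjusted p = 0.0064), but 0.568 to 6.24 CPM in the other nucleus classes. Tex11, a meiosis gene on the X chromosome, had 18 CPM in AT2 cells, against 308 and 110.1 CPM in AT2 nuclei, and 9.09 to 80.6 CPM in the others; its call was lost with DESeq2 (adjusted p = 0.0612). Ankfn1 rested on replicate 1, where AT2 nuclei had 232 CPM, against 35.6 CPM in replicate 2 and 3.76 CPM in cells. Its log2 fold without replicate 1 was -3.07, and its call was lost with DESeq2 (adjusted p = 0.065). As for every gene, the call was also lost on subtraction of the background (edgeR adjusted p = 0.44).

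Genes of surfactant lipid and of lamellar bodies went both ways. Of 51 tested, 11 were higher (21.6%) and 2 lower in cells, against 13.1% higher and 6.44% lower over all genes. The median log2 fold was 0.00, close to that of all genes. Among the enzymes of fatty acid synthesis, the desaturase Scd1 had 2282 CPM in AT2 cells, against 107 and 389.8 CPM in AT2 nuclei (log2 fold 3.30 ± 0.66, edgeR adjusted p = 0.0073). Fatty acid synthase, Fasn, had 255 CPM in cells, against 31 and 65.6 CPM in nuclei, and the elongase Elovl1 410.2 CPM in cells, against 58.1 and 191 CPM in nuclei. All 3 were called higher, Elovl1 close to the threshold (edgeR adjusted p = 0.044, 0.052 to 0.067 under 5 alternatives and 0.32 on subtraction of the background). Acaca, which makes malonyl-CoA for the same pathway, had 325 CPM in cells, against 675 and 849.6 CPM in nuclei, and did not pass. Among enzymes that build phosphatidylcholine, Lpcat1, which remodels it to the saturated surfactant form, had 649 CPM in cells, against 596 and 947 CPM in nuclei (edgeR adjusted p = 0.81). Pcyt1a, which sets the pace of that synthesis, had 82.6 CPM in cells, against 79.2 and 82.6 CPM in nuclei, and the choline kinase Chka 619.8 CPM in cells, against 668 and 569.6 CPM in nuclei. For Lpcat1 and Chka the cell value lay between those of the nuclei, and for Pcyt1a it was nearly equal to that of replicate 2. The sterol carrier Npc2 had 1912 CPM in cells, against 367 and 295 CPM in nuclei, and the phospholipase Pla2g1b 117 CPM in cells, against 14.2 and 19.6 CPM in nuclei; both were called higher. The acyltransferase Gpam, which starts glycerolipid synthesis, had 42.8 CPM in cells, against 223 and 146 CPM in nuclei, and Rab38, a GTPase of lamellar body formation, 21 CPM in cells, against 138 and 77.5 CPM in nuclei; both were called lower, the call of Rab38 being lost without barcodes holding markers of other classes (edgeR adjusted p = 0.058) and on subtraction of the background (edgeR adjusted p = 0.29). Of 17 cholesterol synthesis genes none was higher and 2, Fdft1 and Nsdhl, were lower, with a median log2 fold of -0.21. Without barcodes holding markers of other types none of the 17 was called. At a marker limit of 0.5% 15 surfactant lipid genes were higher and 5 lower.

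**Figure D4:**
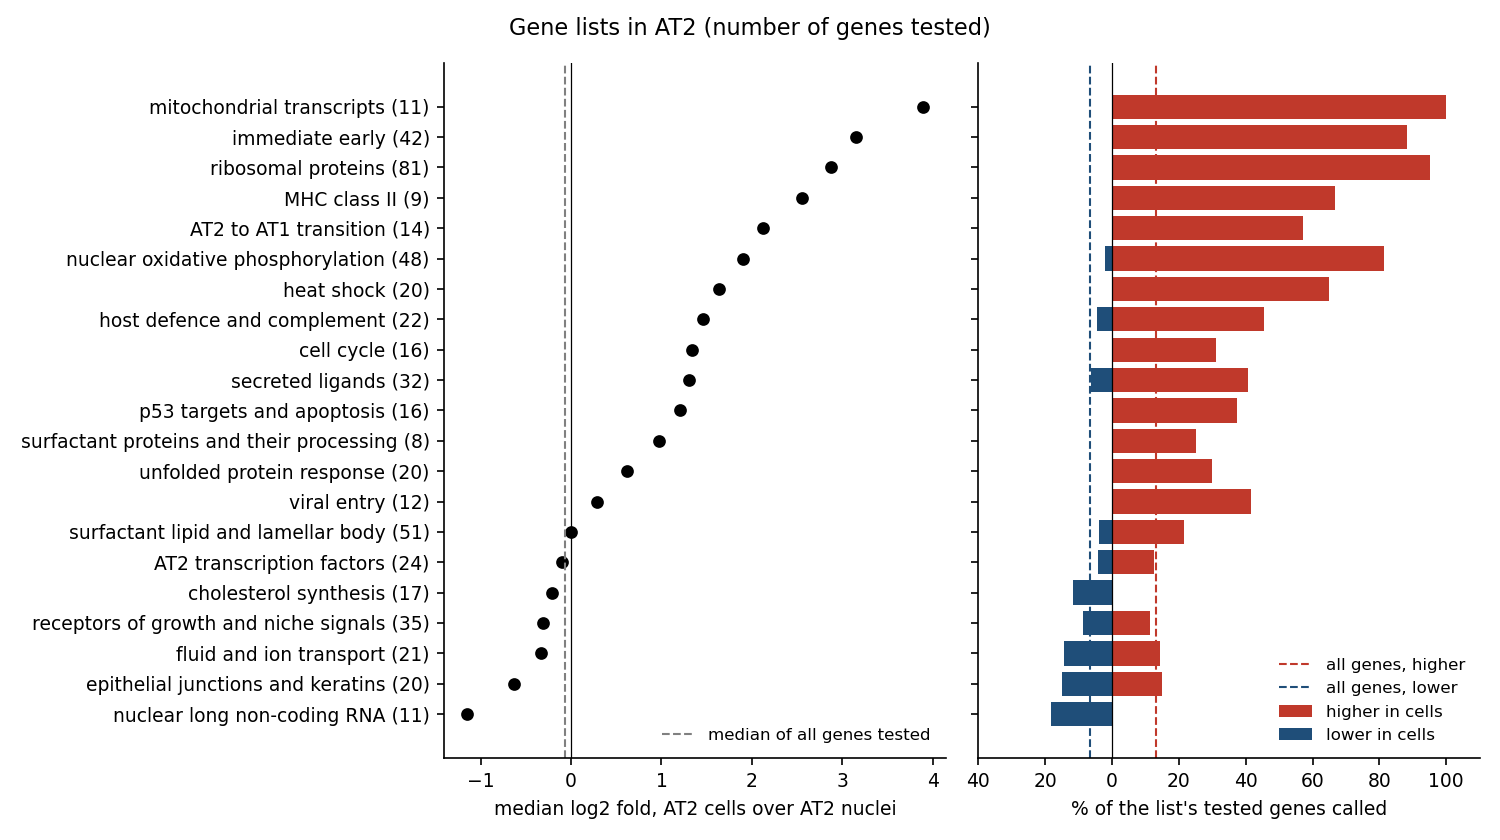
Median log2 fold of AT2 cells over AT2 nuclei (left) and percent of tested genes called higher or lower in cells (right) for 21 gene lists, with the number tested in parentheses. Dashed lines give the same over all genes, a median of -0.07, 13.1% higher and 6.44% lower; mitochondrial, ribosomal and immediate early genes lie at one end and nuclear long non-coding RNAs at the other.

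The transcription factors of AT2 had a share of calls close to that of all genes. Of 24 tested, 3 were higher (12.5%) and 1 lower in cells, with a median log2 fold of -0.10. Over all genes 13.1% were higher and 6.44% lower. Nkx2-1 had 165 CPM in cells, against 147 and 145 CPM in nuclei (edgeR adjusted p = 0.77). Etv5, an ETS factor needed for AT2 maintenance, had 437 CPM in cells, against 1928 and 1775 CPM in nuclei, and was called lower (log2 fold -2.07 ± 0.65, edgeR adjusted p = 0.047); 6 alternatives in edgeR gave adjusted p of 0.055 to 0.10, and subtraction of the background gave 0.32. Cebpa, which drives surfactant and lipid genes, had 90.9 CPM in cells, against 13.2 and 23.1 CPM in nuclei, and was called higher (edgeR adjusted p = 0.0029), as were Cebpb and Elf3. Etv5 was low elsewhere, at 11.7 to 21.4 CPM in the other cell classes and 30.1 to 97.8 CPM in the other nucleus classes. Calls in this list moved to 1 higher and 3 lower of 23 with DESeq2 and to 4 higher and 7 lower at a marker limit of 0.5%.

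Receptors for growth and niche signals also had a share of calls close to that of all genes (13.1% higher and 6.44% lower). Of 35 tested, 4 were higher (11.4%) and 3 lower, with a median log2 fold of -0.31. Fgfr2, which receives FGF7 and FGF10 from fibroblasts, had 1809 CPM in AT2 cells, against 3758 and 4032 CPM in AT2 nuclei, and did not pass (edgeR adjusted p = 0.27). It was not restricted to AT2 in these counts, with 839 to 1445 CPM in the other cell classes. Met, the receptor of hepatocyte growth factor, had 166 CPM in cells, against 521 and 455 CPM in nuclei, and stood at 1.95 to 7.44 CPM in the other cell classes. Of 32 secreted ligands 13 were higher and 2 lower (median log2 fold 1.30). The EGF family ligand Areg had 43.6 CPM in cells, against 7.8 and 6.28 CPM in nuclei, and Hbegf 105 CPM in cells, against 6.07 and 10.1 CPM in nuclei. Il34, a ligand of the CSF1 receptor, was lower, with 55.6 CPM in cells, against 275 and 257 CPM in nuclei. The alarmin Il33 had 252 CPM in cells, against 799.8 and 369.9 CPM in nuclei, and did not pass; it stood at 3.16 to 9.76 CPM in the other cell classes. DESeq2 called 1 receptor higher and 3 lower of 34, and edgeR called 5 higher and 7 lower at a marker limit of 0.5%. DESeq2 called 5 ligands higher and 2 lower, and edgeR called 6 higher and 2 lower without the barcodes that hold markers of other types.

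Genes of defence and of antigen presentation were called higher in AT2 cells more often than lower. Of 22 defence and complement genes tested, 10 were higher (45.5%) and 1 lower, with a median log2 fold of 1.46. Over all genes 13.1% were higher and 6.44% lower, so calls upward were also the more common there. The lysozyme Lyz2 had 8592 CPM in AT2 cells, against 443 and 569 CPM in AT2 nuclei (log2 fold 4.12 ± 0.65, edgeR adjusted p = 0.0026). Immune-marked cells had 5921 CPM of it and immune-marked nuclei 408 and 508 CPM; AT2 nuclei stood near these and above AT1 nuclei, with 189.7 and 195 CPM, and endothelial-marked nuclei, with 289 and 384 CPM. The related Lyz1 had 370.4 CPM in cells, against 42.1 and 55.7 CPM in nuclei; the 2 genes are near copies, and reads may be split between them. Lcn2, a protein that binds bacterial siderophores, had 340.3 CPM in cells, against 15.1 and 14.2 CPM in nuclei, and the chitinase-like Chil1 949.7 CPM in cells, against 74.2 and 205 CPM in nuclei. Among the other cell classes Lcn2 reached at most 25.4 CPM and Chil1 at most 15.6 CPM. Of 9 MHC class II genes tested, 6 were higher and none was lower (median log2 fold 2.55). Cd74, the invariant chain, had 2057 CPM in AT2 cells, against 147 and 261 CPM in AT2 nuclei, and H2-Ab1 421 CPM in cells, against 41.6 and 71.5 CPM in nuclei. Both were also present in the other cell classes, Cd74 at 668 CPM in AT1, 1270 CPM in endothelial-marked and 2501 CPM in immune-marked cells. The part of free RNA from immune cells in these values was not tested.

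The counts of the following lists stand against 13.1% higher and 6.44% lower over all genes. In fluid and ion transport 3 of 21 genes were higher and 3 lower (14.3% each), so the share higher was close to that of all genes. At a marker limit of 0.5% 5 were higher and 6 lower, and without barcodes holding markers of other types 3 were higher and 1 lower. The proton pump subunit Atp6v1c2 had 125 CPM in cells, against 659.8 and 519 CPM in nuclei, and was called lower (edgeR adjusted p = 0.024). The chloride channel Cftr had 159 CPM in cells, against 173 and 134 CPM in nuclei, with a log2 fold of 0.04 ± 0.47. Of 20 genes of epithelial junctions and keratins 3 were higher, namely Epcam, Cldn3 and Cldn7, and 3 lower, namely Ocln, Cgn and Tjp3; DESeq2 called 1 higher and 2 lower, and edgeR at a marker limit of 0.2% called 1 higher and 1 lower. Of 14 genes of the passage from AT2 to AT1 8 were higher and none was lower, with a median log2 fold of 2.13; 4 of these 8, Cdkn1a, Areg, Hbegf and Plaur, are also stress-responsive. Krt8, the keratin most used to mark that passage, had 98.4 CPM in cells, against 40.9 and 61.1 CPM in nuclei, and did not pass. Of 12 genes used by respiratory viruses to enter cells 5 were higher and none was lower: Ctsb, Ctsl, Bsg, Ceacam1 and Icam1. DESeq2 called 2 of the 12 higher, edgeR without a filter 3, and edgeR at a marker limit of 0.5% called 5 higher and 2 lower. The protease Tmprss2 had 30.8 CPM in cells, against 27.7 and 50.4 CPM in nuclei, and did not pass. Of 16 cell cycle genes 5 were higher and none was lower, among them Pcna and Ccnd2; DESeq2 called 2 higher of 9 tested.

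AT2 also varied among themselves. When each library's AT2 were set in 3 equal groups by the summed markers of the rule, Sftpc was higher with more markers in cells, at 33260, 57212 and 85174 CPM from low to high markers. In nuclei replicate 1 it stood at 4310, 4233 and 4194 CPM and in nuclei replicate 2 at 5573, 6166 and 6043 CPM. Lyz2 likewise stood at 4607, 8439 and 12976 CPM in cells, and at 403, 446 and 475 CPM in nuclei replicate 1. Depth was similar between the groups of cells, with medians of 3255, 3382 and 3104 UMIs. Etv5 was higher with more markers in all 3 libraries, at 366, 413 and 538 CPM in cells, 1750, 1953 and 2068 CPM in nuclei replicate 1 and 1032, 2001 and 2139 CPM in nuclei replicate 2. The low group of replicate 2 was also shallower, with a median of 1646 UMIs, against 2337 and 2554 in the other groups. The groups were chosen by marker values, so these trends are a description with no test.

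The 15 genes that varied most between AT2 barcodes in all 3 libraries were Kcnq5, Malat1, Pdzd2, Ank3, Prkg1, Tmem164, Ebf1, Alcam, Acoxl, Adgrl3, Gclc, Pde4d, Scgb1a1, Sox5 and Bmp6, out of 6059 ranked. Acoxl is a gene of the rule. Its values helped to choose the members, so its place in the ranking is not a result about AT2. Several of them are better known from other cells: Ebf1, a factor of B cells and mesenchyme, was detected in 29.3% of AT2 cells and in 7.94 and 17.5% of AT2 nuclei, and Prkg1, a kinase of smooth muscle, in 33.5% of AT2 cells and in 23.5 and 38.4% of AT2 nuclei. The potassium channel subunit Kcnq5 was detected in 25.7% of AT2 cells and in 12.3 and 16.7% of AT2 nuclei. Its level was 233 CPM in AT2 cells, against 141 in AT1, 442 in endothelial-marked and 207 CPM in immune-marked cells. In nuclei replicate 1 it was 68.6 CPM in AT2 and 19.3 to 323 CPM in the other classes. Replicate 2 had 173 CPM in AT2 and 51.6 to 281 CPM in the others. Tmem164, a lipid acyltransferase, was detected in 74.3% of cells and in 89.5 and 80% of nuclei. Gclc, which makes glutathione, was detected in 85.6% of cells and in 74.3 and 64.5% of nuclei. Free RNA and barcodes holding 2 cells were not removed before the ranking.

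Shares of barcodes with a UMI were compared after thinning to 1000 UMIs, with the other classes as background; endothelial-marked barcodes held medians of 2737 UMIs in cells and 4004 and 2072 in nuclei before thinning. Sftpa1 was detected in 94.6% of AT2 cells (100% unthinned) and in 47.3 and 48.8% of AT2 nuclei (90.2 and 74.9% unthinned), against 8.52% of endothelial-marked cells and 28.7 and 35.4% of endothelial-marked nuclei. Sftpb was detected in 89% of AT2 cells and in 91.1 and 84.3% of AT2 nuclei (98.5, 99.5 and 93% unthinned), against 4.54, 21.8 and 35.4% of the endothelial-marked barcodes. The endocytic receptor Lrp2 was detected in 25.4% of AT2 cells and 28 and 28.4% of AT2 nuclei (49.4, 61 and 47.6% unthinned), and in at most 5.05% of any other class. Il33 was detected in 23.7% of AT2 cells and 37.4 and 24.1% of AT2 nuclei (46.2, 72.2 and 40.8% unthinned), and in at most 4.18% of any other class. The exact 95% interval was 21.3 to 29.9% for Lrp2 and 19.7 to 28.1% for Il33 in AT2 cells. At this depth Lrp2 and Il33 were thus seen in a minority of AT2 in every library and rarely elsewhere. Lcn2 was detected in 22% of AT2 cells (46.9% unthinned), but its 1.82 and 1.28% in AT2 nuclei (6.05 and 3.24% unthinned) stood beside 1.25 and 1.56% in endothelial-marked nuclei. The level of Lcn2 in AT2 nuclei given above stood beside 7.95 and 6.13 CPM in AT1 nuclei and 11.9 and 14.8 CPM in endothelial-marked nuclei. Axin2, a target of Wnt signalling found in AT2 progenitors, was detected in 2.44% of AT2 cells and 2.5 and 3.75% of AT2 nuclei (5.13, 11 and 7.35% unthinned), against 2.98, 2.3 and 1.62% of endothelial-marked barcodes. Cldn4, a claudin of the passage to AT1, had a UMI in 0 of 409 AT2 cells, which, at 3 counts of the total, allows a share of up to 0.733%; this limits AT2 cells with a UMI of Cldn4 at this depth, by counting error alone, and not AT2 cells that express it. Mki67, a proliferation gene, was detected in 1.47% of AT2 cells and 0.303 and 0.822% of AT2 nuclei (5.62, 1.06 and 2.6% unthinned), against 1.62, 0.323 and 0.499% of endothelial-marked barcodes, and is not read as cycling. Of 30 genes looked at in this way, the whole interval of AT2 lay above those of the 3 other classes for 15 in cells and for 8 and 11 in nuclei. The 30 genes were picked and include the surfactant proteins, and the same share over all genes was not computed. The intervals cover counting error over barcodes of 1 library only, so these numbers describe the list.

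The difference between preparations in AT2 was then set against that in AT1, the other epithelial cell of the alveolus, in 1 model over both classes. AT1 were chosen by at least 0.5% of UMIs in Rtkn2, Ager, Col4a3 and Col4a4 and under 0.3% in the AT2 markers, and numbered 160 cells and 341 and 997 nuclei. Of 14989 genes tested, the log2 fold of cells over nuclei was higher in AT2 for 89 genes (0.594%) and lower for 42 (0.28%). Of the 8 named genes with higher folds in AT2, 6 encode secreted proteins, but the share of such genes over all genes was not computed. The 8 are the largest differences of the 89, so this number describes them alone. Sftpc had 58045 CPM in AT2 cells, against 4245 and 5953 CPM in AT2 nuclei, whereas AT1 had 756 CPM in cells, against 1678 and 1786 CPM in nuclei (log2 difference of folds 5.18 ± 0.58, edgeR adjusted p = 0.00036). Sftpa1 had 80.1 CPM in AT1 cells, against 249 and 211 CPM in AT1 nuclei (difference 5.07 ± 0.47, edgeR adjusted p = 0.00018). Lyz1 differed by 5.26 ± 0.62, the surfactant-associated Sfta2 by 5.52 ± 0.65 and the chitinase Chia1 by 5.05 ± 0.79, each with under 5 counts in AT1 cells. Cbr2, a carbonyl reductase of lung, had 730.3 CPM in AT2 cells, against 1139 and 1027 CPM in AT2 nuclei, and 7.81 CPM in AT1 cells, against 435 and 369 CPM in AT1 nuclei. For these 6 genes AT1 nuclei thus held counts that AT1 cells nearly lacked or held at lower levels. Pla2g1b and Fabp5 had no count in AT1 cells, so that their fitted differences depend on a prior count and are not bounds.

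Of the surfactant protein list 4 of 8 genes differed upward, Sftpb among them (2.86 ± 0.57, edgeR adjusted p = 0.023) although its fold within AT2 did not pass, and of 21 defence genes 7 did. Of 43 immediate early genes tested, 1, Gadd45b, differed from AT1 (1.85 ± 0.34, edgeR adjusted p = 0.014), and of 20 heat shock genes none did at an adjusted p under 0.05. The median difference over the immediate early list was 0.61, against 0.13 over all genes.

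All 8 named genes with lower folds in AT2 had higher levels in AT1 cells than in AT1 nuclei. Dgkg, a diacylglycerol kinase, had 531 CPM in AT2 cells, against 116 and 148 CPM in AT2 nuclei, and 687 CPM in AT1 cells, against 4.54 and 10.8 CPM in AT1 nuclei (difference -3.94 ± 0.43, edgeR adjusted p = 0.00036). Entpd1, an ectonucleotidase of endothelium and leukocytes, had 308 CPM in AT2 cells, against 1202 and 658 CPM in AT2 nuclei, and 195 CPM in AT1 cells, against 39.8 and 39.4 CPM in AT1 nuclei (difference -3.35 ± 0.46). Tmem132d, a membrane protein, had 637 CPM in AT2 cells, against 1519 and 1615 CPM in AT2 nuclei, and 285 CPM in AT1 cells, against 48.9 and 70 CPM in AT1 nuclei (difference -3.11 ± 0.43). Among keratins Krt19 differed by -2.42 ± 0.37 and Krt7 by -1.67 ± 0.37. The number of genes with a difference moved with the settings, to 38 higher and 20 lower with the size factors of DESeq2 and to 45 higher and 15 lower at a marker limit of 0.5%.

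**Figure D5:**
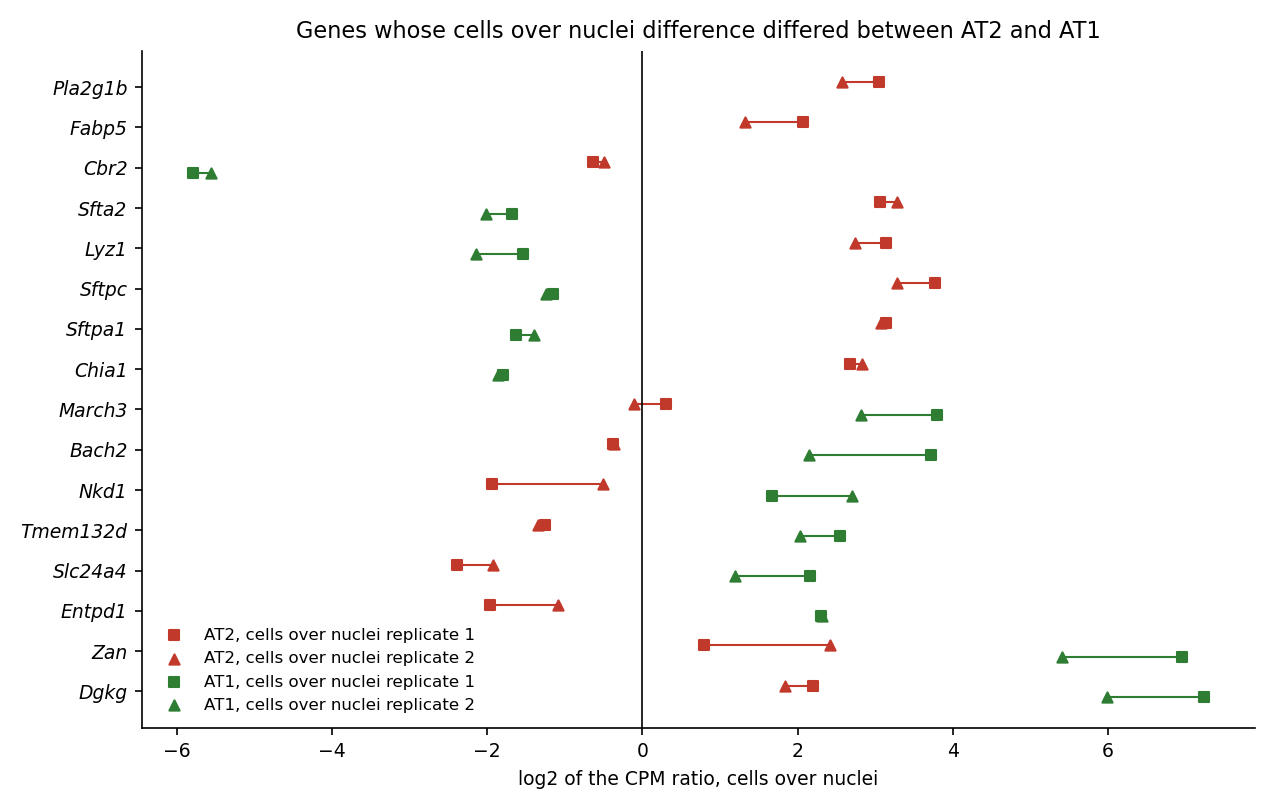
Log2 ratio of the CPM in cells over that in each nucleus library, for AT2 (red) and AT1 (green), for the 8 genes with the largest tested difference between the classes in each direction. Squares are replicate 1 and triangles replicate 2 of nuclei; Pla2g1b and Fabp5 have no AT1 point because AT1 cells held no count, and Sftpc stands above 3 in AT2 and below -1 in AT1.

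Against endothelial-marked barcodes (3016 cells and 2473 and 1610 nuclei) no gene passed among 16531 tested (0%), with 801 higher and 1007 lower in AT2 at an unadjusted p under 0.05 in edgeR. With the size factors of DESeq2 it was again none, with 1112 higher and 517 lower at an unadjusted p under 0.05. Without a filter on low counts 59 were higher and 14 lower, and at a marker limit of 0.5% 60 were higher and 1 lower. Whether any gene was called thus depended on these settings.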

How the data were processed

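The deposited tables hold counts, whole-number UMIs per gene and barcode, which the authors made from droplet libraries of lung cells and nuclei; reads were aligned with STAR 2.5.3a to mm10, per the submitters' processing notes. The authors’ counting program, annotation, use of intron reads and strand, and filters on barcodes are, for this series, not given in the sources used here. The members and gene lists were chosen with earlier results of these data known.

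UMIs of AT2 barcodes were summed per library over genes present in both tables, which gave 1330998 counts in cells and 5768800 and 4938853 in nuclei, and were compared with edgeR 4.0.16 (R 4.3.3; quasi-likelihood F test, TMM factors, low counts removed with filterByExpr, Benjamini-Hochberg adjustment over all genes, threshold 0.05). Classes were compared by an interaction term, with the library as a block. The 10 genes of the rule stayed in the fits and in the adjustment, but their p-values are not given and they are not in the counts of genes tested or called. No batch is labelled, and no sex, animal or date. Named genes had at least 50 CPM in a group, a fold of at least 2, an adjusted p under 0.05 and a cell value above both nuclei or below both; the text names the 12 largest log2 folds in each direction, with ribosomal protein and mitochondrial genes and clone-like symbols taken as groups only; interactions took the 8 largest. Genes varying among AT2 were the 15 with the best worst rank of Pearson residual variance over the 3 libraries. Doublets were called with scrublet in scanpy 1.11.5, which worked in nuclei replicate 1 alone, and were removed only as an alternative. Free RNA was not removed. Alternatives used other marker limits, filters, size factors and DESeq2 1.42.0. Promoters are from RefSeq (GRCm38.p6).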

Additional observations from a re-analysis of the deposited data

Results flagged for a closer look

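The difference between AT2 cells and nuclei departed from that between AT1 cells and nuclei for 16 named genes, by the interaction term in edgeR at an adjusted p under 0.05. The log2 difference of the folds, AT2 less AT1, was 5.56 for Cbr2, 5.52 for Sfta2, 5.26 for Lyz1, 5.18 for Sftpc, 5.07 for Sftpa1 and 5.05 for Chia1. It was 9.42 for Pla2g1b and 9.25 for Fabp5, where AT1 cells had no count and the fitted value depends on the prior count. It was -3.94 for Dgkg, -3.51 for Zan, -3.35 for Entpd1, -3.15 for Slc24a4, -3.11 for Tmem132d, -2.96 for Nkd1, -2.73 for Bach2 and -2.68 for March3. AT1 nuclei held 435 and 369 CPM of Cbr2 and 1678 and 1786 CPM of Sftpc, and the part of free RNA in these values was not tested. The 16 genes are the 8 largest differences in each direction, so their sizes are a selection.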

How the results depend on the processing

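No paired analysis was possible because there is 1 cell library and no label links it to either nucleus library. Against 1993 genes higher and 976 lower in AT2 cells, DESeq2 gave 1010 and 550, of which 1437 were called the same way by edgeR, and subtraction of the level shared by the other classes, chosen after seeing the data, gave 0 and 0. Genes lower in cells numbered 2007 at a marker limit of 0.5% and 544 without barcodes holding markers of other types. For the contrast with AT1, 89 higher and 42 lower became 38 and 20 with DESeq2's size factors, 192 and 110 with no filter and 45 and 15 at 0.5%. For that with endothelium, 0 and 0 became 59 and 14 with no filter and 60 and 1 at 0.5%. At limits of 0.2 and 0.5% the AT2 share was 3.76 and 2.68% of cells, against 20.7 and 16% of nuclei replicate 1 and 27.4 and 16.9% of replicate 2. Genes per AT2 barcode, cells over the mean of nuclei, were 0.978 at 1000 UMIs, 1.00 at 2000 and 1.02 unthinned. On subtraction Ctsl and Pcna turned round, to log2 folds of -7.46 and -6.15. Of the 78 genes the text names that were called, 14 lost the call with DESeq2, 10 at a limit of 0.2% and 9 each without doublets, without barcodes holding other markers and with no filter. On subtraction of the background none of the 76 still tested kept the call. The cause of these changes was not tested. A limit of at least 1500 UMIs, also chosen after seeing the data, gave 2107 and 976. With 1 nucleus library left out no residual degree of freedom remains, so only folds were computed. Summed counts were fewest in AT2 cells, 1330998, and median UMIs per AT2 barcode were 3216 in cells, against 4491 and 2243 in nuclei.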
